A study of Mus musculus with 69 samples.

Results

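The genes described here encode the proteins of the cytosolic ribosome, and their mRNA was followed by sequencing of hand-dissected kidney tubules of mice that had undergone unilateral nephrectomy (UNx) or a sham operation. They were chosen by name, as rows called Rpl or Rps with a number, Rplp0 to Rplp2 and Rpsa, without 7 paralog names that carry a number of their own (such as Rps27l) and without pseudogene names. Of 52404 rows in all 4 tables, 82 matched, and 79 reached a mean of at least 1 TPM (an abundance per transcript length that sums to a fixed total in each library) in a table. There were 77 that did so in each of the 4. Each table is 1 nephron segment at 1 time.

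All mice were wild-type male C57BL/6 animals (Taconic), operated at 7 weeks of age. The segments were the initial proximal tubule, S1 (PT-S1), which takes back most of the filtered glucose and phosphate, and the cortical collecting duct (CCD), where salt and water uptake is tuned by hormones. PT-S1 at 24 h comprised 8 libraries of 3 sham animals and 9 libraries of 4 UNx animals. PT-S1 at 72 h had 12 libraries of 5 animals in each group. CCD at 24 h had 8 libraries of 4 sham animals and 7 libraries of 3 UNx animals. CCD at 72 h had 7 libraries of 4 sham animals and 6 libraries of 4 UNx animals. The number that follows the operation in each title was taken for the animal, which is the replicate throughout. Whether libraries of 1 animal are separate dissections is not given in the sources used here, nor is whether both segments came from the same mice. The design asks what happens in tubule cells of the remaining kidney once its partner is gone.

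A ribosome has a small subunit, which reads the mRNA, and a large subunit, which joins amino acids and holds the exit tunnel of the new protein. Apart from the stalk proteins Rplp1 and Rplp2, all are present in equal number, and most of their mRNAs are TOP messages, which begin with a C and a run of pyrimidines (C or T in the gene) that ties their translation to the growth signal of mTORC1. The loss of a kidney is known for growth of the tubule cells that remain, more by enlargement than by division, and that growth depends on mTORC1 and on S6 kinase, which phosphorylates Rps6. Translation of a TOP message can change with no change of its level, and TPM reads the level only.

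Sequences around the start sites of a few of the genes are given here. A RefSeq table for the GRCm38.p6 build (the authors' notes name GRCm39, so these positions serve the sequences only) held 58 of the 79 genes, with 68 start sites. The windows below run from 30 bases before to 30 bases from the annotated start, on the coding strand. Capitals mark the longest run of C or T in the window. Rps25, Rpl35, Rpl12, Rpl11 and Rps6 are shown because the changes described below turn on them, and Rpl4 and Rplp0 because they were lower where most others were higher or differ between segments.
Rps25, chr9:44407684-44407743, plus strand: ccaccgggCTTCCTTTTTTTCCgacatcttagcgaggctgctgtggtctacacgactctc
Rpl35, chr2:39005102-39005161, minus strand: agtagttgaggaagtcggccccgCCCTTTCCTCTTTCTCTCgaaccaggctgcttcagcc
Rpl12, chr2:32961682-32961741, plus strand: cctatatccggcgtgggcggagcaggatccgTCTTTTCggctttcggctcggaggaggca
Rpl11, chr4:136053364-136053423, minus strand: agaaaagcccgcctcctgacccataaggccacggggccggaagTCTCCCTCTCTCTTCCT
Rps6, chr4:86857338-86857397, minus strand: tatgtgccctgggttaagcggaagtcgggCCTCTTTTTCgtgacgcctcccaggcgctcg
Rpl4, chr9:64173357-64173416, plus strand: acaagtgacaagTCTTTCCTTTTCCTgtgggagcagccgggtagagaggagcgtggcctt
Rplp0, chr5:115559437-115559496, plus strand: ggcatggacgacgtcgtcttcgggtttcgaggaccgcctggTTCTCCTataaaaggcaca

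In Rps6 the run of 10 pyrimidines spans the annotated start, and in Rpl35 a run of 18 begins 7 bases before it. In Rps25 a run of 14 lies wholly upstream, ending before the annotated start. A run of at least 8 pyrimidines between 10 bases before and 30 after the start was found on the coding strand at 41.2% of the 68 starts, against 14.4% of the 32851 starts of all genes. A C at the annotated start followed by 4 pyrimidines was found at 20.6% against 2.51%, and these overlap with the longer runs. CTTCCG, searched on both strands from 250 bases before to 50 after the start, was in 61.8% against 16.9%. These are matches of letters, which depend on where the table places the start.

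The ribosomal protein genes were among the more abundant transcripts of both segments, and their order was nearly the same in each. Their sum was about 1% of TPM, from 0.497% to 2.89% over the 69 libraries. Among sham animals the median member stood at 112 TPM in PT-S1 at 24 h, 94.2 in PT-S1 at 72 h, 104 in CCD at 24 h and 120 in CCD at 72 h, over the 77 genes present in all tables. This placed the median member between the percentiles 86.5 and 90.0 of all genes tested. Although nearly all the proteins are used in equal number, the highest mRNA was 26.5 to 35.7 times as abundant as the lowest, depending on the table.

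Rps14, a small subunit protein at the platform, was highest in 3 tables, with 522 ± 140 TPM (SD, n = 3) in PT-S1 at 24 h, 550 ± 31.4 (SD, n = 4) in CCD at 24 h and 579 ± 37.4 (SD, n = 4) in CCD at 72 h. In PT-S1 at 72 h Rplp0, the scaffold of the acidic stalk that recruits translation factors, led with 536 ± 16.7 TPM (SD, n = 5), ahead of Rps14 with 470 ± 60.2. Rps27 and Rplp1 were also among the 3 highest of a table. Rpl27a was lowest of the 77 everywhere, from 15.0 TPM in PT-S1 at 72 h to 19.7 in PT-S1 at 24 h. Next above it were Rpl12, at the base of the stalk, and Rpl5, which carries the 5S rRNA into the large subunit, both between 21.6 and 32.5 TPM. Neighbours in the order seldom differed beyond their spread: the sham animals of adjacent members did not overlap for 0 of 76 pairs in PT-S1 at 24 h, 1 of 77 in PT-S1 at 72 h, 5 of 76 in CCD at 24 h and 3 of 77 in CCD at 72 h. Across the 77 genes the Spearman correlation of sham levels between tables lay between 0.957 and 0.993, a description over genes that share libraries and gene lengths.

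**Figure D1:**
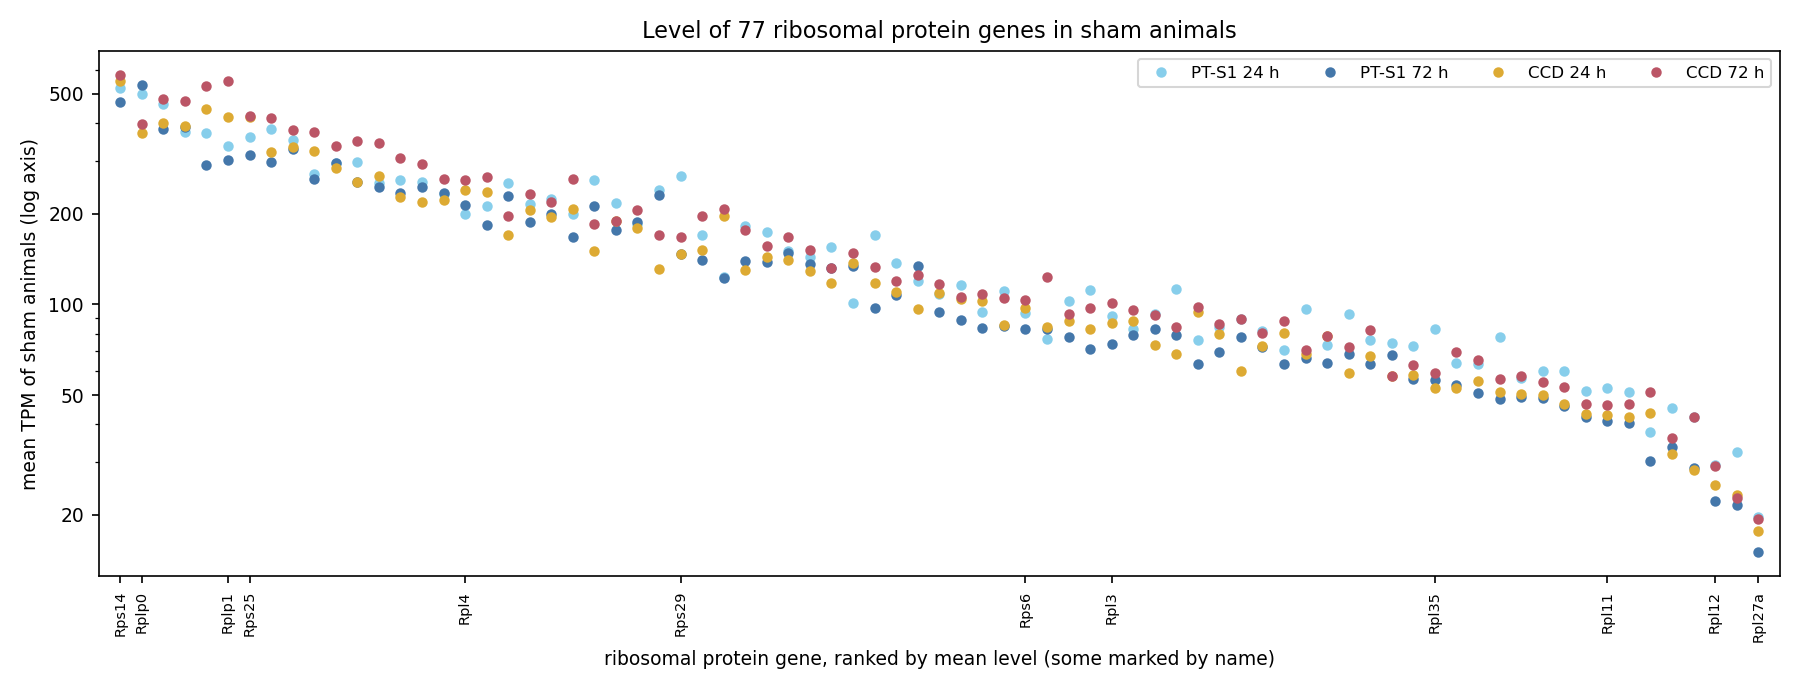
Mean TPM of the sham animals (vertical, log axis) for the 77 ribosomal protein genes present in all tables (horizontal, ranked by mean level, with some of the genes named in the text marked), with 1 colour for each segment and time. Rps14 and Rplp0 stand at the left with means of up to 579 TPM, Rpl27a at the right with 15.0 to 19.7, and the 4 tables follow the same slope.

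Few members kept a difference between segments at both times. The tables were treated as normalized separately, so these levels are set side by side with no test. No share over all genes is given beside the counts that follow, so they are not read as particular to these genes. All libraries were used, among them the sham libraries described below that stood apart. At 24 h the CCD sham animals were all below the PT-S1 sham animals for 18 of 77 genes and all above for 2, while at 72 h the reverse held, with 1 below and 22 above. Only Rplp0, Rpl4 and Rpl7 lay on the same side at both times, and Rpl7 is named after its values were seen. Rplp0 had 371 TPM in CCD and 500 in PT-S1 at 24 h, and 396 and 536 at 72 h. Rpl4, which lines the exit tunnel, had 241 and 200 TPM at 24 h, and 259 and 213 at 72 h. Rpl7 had 196 and 124 TPM at 24 h, and 207 and 122 at 72 h. Rps2 had 131 TPM in CCD and 240 in PT-S1 at 24 h, but its animals overlapped at 72 h.

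The paralogs outside the rule differed more. Rps27l, a paralog of Rps27 known as a p53 target, reached 735 ± 114 TPM (SD, n = 3) in PT-S1 sham animals at 24 h and 585 ± 19.5 (SD, n = 4) in CCD at 24 h, above every ribosomal protein gene of the rule in both tables. Rps4l had 30.3 ± 5.29 TPM (SD, n = 3) in PT-S1 and 181 ± 43.6 (SD, n = 4) in CCD at 24 h. Rpl10l and Rpl39l were under 1 TPM in every table. Some names within the rule were near or under the limit of 1 TPM. Rpl32l was inside in PT-S1 at 72 h with a mean of 1.06 TPM and outside in PT-S1 at 24 h with 0.838, and Rps3a3 was inside in CCD at 72 h with 1.05 and outside in CCD at 24 h with 0.925. Rps3a2 and Rpl6l stayed under 1 TPM in all tables, and Rps12l1 is listed at 0.

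Libraries stood apart in a way that touches these genes, so the shares are given before the comparisons. In 5 libraries the median correlation with the rest of the table was under 0.92. They were 2 sham PT-S1 libraries at 24 h, 2 UNx PT-S1 libraries at 72 h and 1 sham CCD library at 72 h. The ribosomal protein genes held 0.497% and 2.89% of TPM in the PT-S1 24 h pair, 2.79% and 2.84% in the PT-S1 72 h pair, and 1.82% in the CCD library. The PT-S1 72 h pair came from UNx animals 1 and 2, whose other libraries held 0.937% and 1.06%. That pair also had 9247 and 9632 genes at 1 TPM or more, against at least 11198 in the other UNx libraries of the table. The main medians and counts of calls for the family are given below with and without these libraries. Values of single genes, the separation of groups and marker sums use all libraries unless said otherwise.

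**Figure D2:**
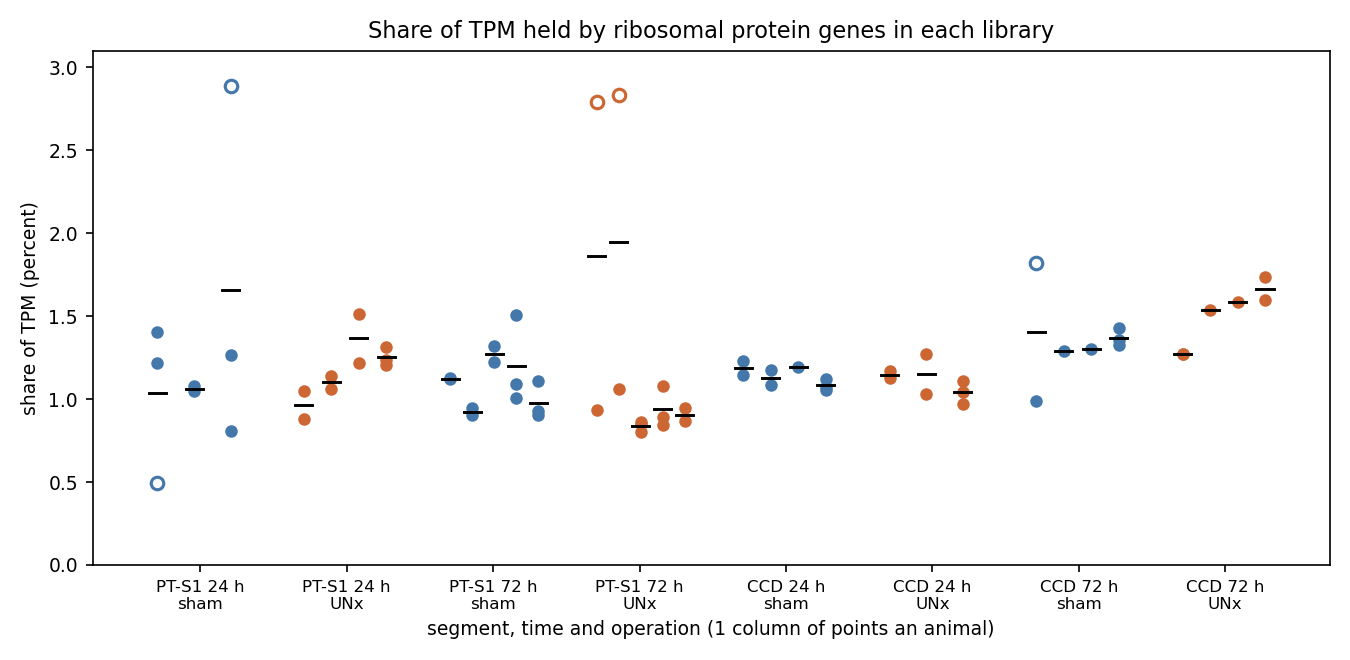
Share of TPM held by the ribosomal protein genes (vertical, percent) in each library, with 1 column of points for each animal, sham in blue and UNx in orange. Black bars are animal means and open circles the 5 libraries of low correlation, which include the 3 highest points, from 2.79% to 2.89%.

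Proximal tubule and principal cell markers separated PT-S1 from CCD as labelled. The summed level of 7 S1/S2 proximal tubule markers was 8818 to 18205 TPM in PT-S1 animals and 3.71 to 76.9 in CCD animals. That of 7 principal cell markers was 22133 to 66803 TPM in CCD animals and 71.5 to 135 in PT-S1 animals, where Aqp2 was under 1 TPM. The 6 proximal tubule S3 markers were also present in PT-S1 animals. At 24 h they summed to 1088 to 1626 TPM in sham and 1129 to 2141 in UNx. At 72 h they summed to 583 to 3267 TPM in sham and 577 to 2037 in UNx. Of 5 tested, 5 were higher in UNx at 24 h (median change 0.86) and 3 at 72 h (0.16). None had an unadjusted p under 0.05. Their part in the members' values was not tested.

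In PT-S1 at 24 h no ribosomal protein gene passed the test of UNx against sham. The members' median change was +0.049 on the log2 scale, while that of all 11874 genes tested was -0.19, and 50 of 77 members were higher in UNx against 29.1% of all genes. None of the 77 had an unadjusted p under 0.05, where 17.8% of all genes did, and the smallest adjusted p of limma was 0.36. For none did the groups separate, against 2.79% of all genes above and 12.1% below. Changes of members ran from -0.24 to 0.32. The group means of the share of TPM were 1.25 ± 0.35% in sham (SD, n = 3) and 1.17 ± 0.18% in UNx (SD, n = 4).

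Rpl30, a large subunit protein, had 54.3, 50.6 and 85.5 TPM in the sham animals and 57.1, 64.5, 98.1 and 67.5 in the UNx animals, the highest change with 0.32 ± 0.22 (SE). Sham animal 3 lay inside the UNx range. Rpl10a was lowest with a change of -0.24 ± 0.21 (SE), from 37.8 ± 9.94 TPM in sham to 30.6 ± 5.92 in UNx. The members' position relative to the median of all genes was +0.24, and it was +0.27 after median-ratio scaling, which moved the median of all genes from -0.19 to -0.006. The position was +0.11 with no level filter, +0.039 without sham animal 1 and +0.46 without sham animal 3. The members' median itself was -0.077 without sham animal 1 and -0.079 when animals were averaged before taking logs, so its sign was not stable. With the 2 poorly correlated sham libraries left out, the position was +0.29, and no member passed, against 0.00847% of all genes.

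In PT-S1 at 72 h no member passed either, and the direction of the group depended on 2 libraries. With all libraries the median change was +0.048 against -0.29 for all 11886 genes, and 44 of 78 members were higher, against 17.0% of all genes. Without the 2 UNx libraries of low correlation, 0 of 78 were higher, and the median was -0.23 against -0.021 for all genes. The UNx share of TPM was 1.30 ± 0.56% (SD, n = 5) with all libraries and 0.936 ± 0.082% without the 2, against 1.10 ± 0.15% in sham (SD, n = 5).

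With all libraries, the members of lowest p in this table were mostly long genes and had lower levels in UNx. In all, 7 of 78 members had an unadjusted p under 0.05, all lower, where 19.1% of all genes were lower at that threshold, so the share of members was below the background. The UNx animals were all below the sham animals for 4 members, against 5.33% of all genes, and all above for 0, against 0.236%. The 4 were Rpl3, Rpl4, Rplp0 and Rps6. Separation was read on the log2 means of animals that the test uses, which can differ from the arithmetic means printed here where a UNx and a sham animal lie close.

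Rpl3 (ENSMUSG00000060036), which lies near the peptidyl transferase centre, had 72.5, 60.2, 78.2, 86.3 and 71.5 TPM in the sham animals and 44.4, 60.5, 59.4, 54.5 and 51.1 in the UNx animals. UNx animal 2 and sham animal 2 were nearly level by arithmetic mean, and all other UNx animals were below all sham animals. The change was -0.46 ± 0.16 (SE). Rpl4 (ENSMUSG00000032399) had 221, 198, 224, 211 and 212 TPM in sham and 125, 167, 175, 177 and 167 in UNx, with every UNx animal below every sham animal. Its change was -0.44 ± 0.16 (SE). Rplp0 (ENSMUSG00000067274) had 549, 535, 550, 536 and 509 TPM in sham and 315, 385, 440, 471 and 441 in UNx, also apart. Rps6 (ENSMUSG00000028495) had 80.7, 81.0, 85.8, 88.9 and 76.5 TPM in sham and 63.4, 70.0, 64.9, 65.3 and 67.7 in UNx, the steadiest member of the table with a pooled SD between animals of 0.067 on the log2 scale. The adjusted p by limma was 0.237 for Rpl3, Rpl4 and Rplp0 and 0.241 for Rps6, so none passed. Without the 2 libraries the changes of these 4 were smaller, at -0.29 for Rpl3, -0.22 for Rpl4, -0.22 for Rplp0 and -0.22 for Rps6.

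The shortest genes went the other way with all libraries, and only in UNx animals 1 and 2. Rps29, a zinc-binding small subunit protein with a coding sequence of 168 bases, had 161, 99.0, 154, 198 and 125 TPM in sham and 610, 437, 100, 116 and 141 in UNx. Rps28 had 152, 113, 158, 163 and 108 TPM in sham and 428, 465, 106, 130 and 129 in UNx. Rpl39, which lines the exit tunnel and has 153 coding bases, had 35.4, 27.1, 39.0, 40.7 and 26.3 TPM in sham and 108, 104, 25.7, 28.7 and 32.6 in UNx. UNx animals 3, 4 and 5 lay within or below the sham range for all 3 genes. Their changes were 0.39, 0.39 and 0.39 with all libraries, and -0.17, -0.12 and -0.087 without the 2.

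Length ordered the whole family in this table. Coding length was read from a mouse annotation and given for 77 of the 79 genes, from 138 bases for Rpl41 to 1257 for Rpl4. The 40 genes of up to 468 bases, the median, had a median change of 0.17, with 38 higher, and the 37 longer genes -0.18, with 31 lower. Across the 77 genes the Pearson correlation of the change with log2 coding length was -0.87, a description, since the genes share libraries. In all genes of the table the split went in the same direction, with a median of -0.002 for 891 genes of up to 468 coding bases and -0.31 for 9875 longer ones, of which 8622 were lower. Without the 2 libraries the members' correlation was -0.22 and the medians were -0.21 for the shorter and -0.26 for the longer genes. The sum of the shorter over that of the longer genes in TPM was 2.98 and 2.61 in the 2 libraries of low correlation, and from 0.952 to 1.11 in the other 10 UNx libraries. What set these libraries apart was not tested.

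Markers of other cell types also differed between the animals of PT-S1 at 72 h. The 7 principal cell markers summed to 71.5 to 79.8 TPM in sham animals and 96.3 to 135 in UNx animals, although 5 of the 7, Aqp2 among them, had a mean under 1 TPM. The 7 intercalated cell markers summed to 4.02 to 21.4 TPM in sham and 1.98 to 2.93 in UNx, again with 5 under 1 TPM. Of the 2 genes tested in each list, 1 principal cell marker was higher and 1 intercalated cell marker lower at an unadjusted p under 0.05, and none passed. The 8 fibroblast and mural cell markers summed to 32.2 and 55.7 TPM in UNx animals 1 and 2, 1.99 to 12.4 in the other UNx animals and 3.43 to 13.7 in sham. The S1/S2 proximal tubule markers were at 10601 and 11281 TPM in UNx animals 1 and 2, 17424 to 18205 in the other UNx animals and 9560 to 18060 in sham. The part of these markers in the members' values was not tested.

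Without the 2 libraries 25 of 78 members had an unadjusted p under 0.05, all lower, against 8.10% of all genes. The lowest were Rpl32l, Rpl35 and Rpl21 (named after its values were seen), and Rpl35 had the smallest p, with a change of -0.64 ± 0.17 (SE) and an adjusted p of 0.20 by limma. None passed, against 0.00837% of all genes. Rpl35 itself had 53.9, 36.8, 69.5, 72.3 and 49.0 TPM in sham and 153, 127, 27.7, 33.5 and 37.8 in UNx with all libraries, so UNx animals 1 and 2 were above every sham animal, animals 3 and 4 were below, and animal 5 lay inside the sham range. With weights for each animal by arrayWeights, which count animals far from their group less, 20 members passed, all lower, against 11.3% of all genes.

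**Figure D3:**
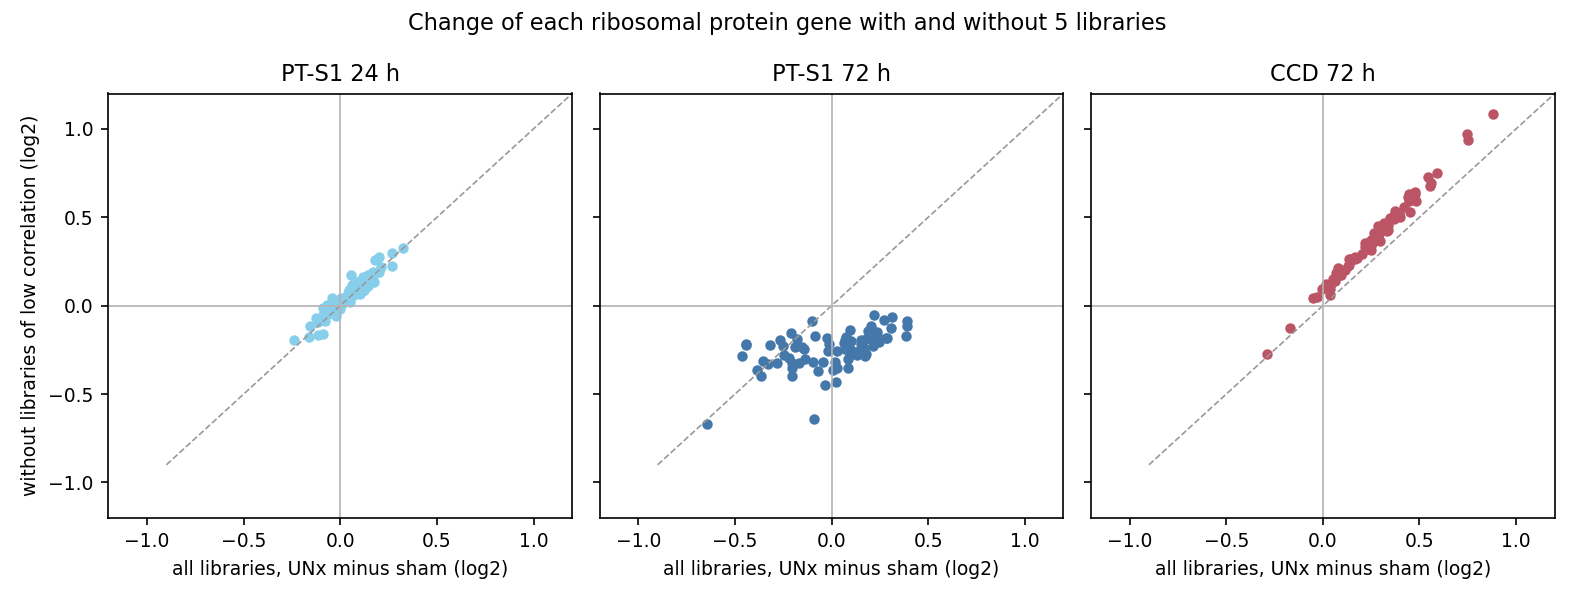
Change of each ribosomal protein gene with all libraries (horizontal) against that without the libraries of low correlation (vertical), both UNx minus sham in log2(TPM + 1), for the 3 tables that have such libraries. In PT-S1 at 72 h the points spread from -0.65 to 0.39 along the horizontal axis and all lie below 0 on the vertical one, while in PT-S1 at 24 h they follow the dashed line of equal change and in CCD at 72 h nearly all lie above it.

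In CCD at 24 h 1 member passed the test and the family's median was near 0. Rps25 fell by 0.72 on the log2 scale, and the median change of the 77 members was -0.018, against -0.038 for all 13775 genes. The share of genes called was 0.987% over all genes. Of the members 31 of 77 were higher in UNx, against 41.8% of all genes. The share of TPM was 1.15 ± 0.052% in sham (SD, n = 4) and 1.11 ± 0.062% in UNx (SD, n = 3).

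Rps25 (ENSMUSG00000009927), a small subunit protein known for its part in initiation at internal entry sites, had 415, 397, 442 and 421 TPM in the sham animals and 233, 243 and 293 in the UNx animals. No animal overlapped, and neither did any library, with 372 to 477 TPM in 8 sham libraries and 179 to 301 in 7 UNx libraries. The fold of UNx over sham was 0.605, with an SE of 0.094 on the log2 scale and an adjusted p of 0.021 by limma. The call was lost without sham animal 1 or 4 or UNx animal 1 or 2, with adjusted p from 0.054 to 0.099, while the change stayed between -0.65 and -0.83 over the 7 such fits. Elsewhere the change of Rps25 was 0.12 ± 0.21 (SE) in PT-S1 at 24 h and 0.23 ± 0.16 (SE) in CCD at 72 h. At 72 h in CCD the sham animals had 514, 500, 300 and 374 TPM and the UNx animals 466, 465, 458 and 528, so the sham animals lay on both sides of the UNx animals.

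Other members of this table with small p were mixed in direction. Of the 77 members 3 had an unadjusted p under 0.05, Rps25 and Rps27 among them, against 15.5% of all genes. Groups did not overlap for 3 members that were higher in UNx, Rpl5 and Rpl13 among them, and 2 that were lower (Rps25 and Rpl17), against 5.55% and 9.51% of all genes. Rps27 had 457, 398, 495 and 429 TPM in sham and 344, 411 and 326 in UNx, a change of -0.31 ± 0.10 (SE) with an adjusted p of 0.20 by limma, and UNx animal 2 lay inside the sham range. Rpl5 differed little in size, with 23.7, 23.5, 23.7 and 22.6 TPM in sham and 27.7, 26.3 and 24.6 in UNx. Its partner in the 5S particle, Rpl11, had 45.3 ± 8.36 TPM in UNx (SD, n = 3) and 43.0 ± 3.23 in sham (SD, n = 4), with a change of 0.049.

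Summed cell type markers also differed between animals of this table. Summed principal cell markers were 25077, 50456, 50052 and 26543 TPM in the sham animals and 66803, 48052 and 61542 in the UNx animals. The list did not move as a whole, with a median change of 0.014 and 4 of 7 higher, against 41.8% of all genes. At an unadjusted p under 0.05, 3 of the 7 were higher, against 5.55% of all genes, and 0 lower. Thick ascending limb markers summed to 863, 4223, 116 and 237 TPM in sham and 108, 225 and 175 in UNx, mostly Umod. Of 6 tested, 1 was higher, and 2 were lower at an unadjusted p under 0.05. Proximal tubule S3 markers summed to 121 to 202 TPM in sham and 95.6 to 139 in UNx, with a median change of -1.15. Of 5 tested, 0 were higher, and 2 were lower at that threshold, against 9.97% of all genes. Sham animals 1, 2, 3 and 4 had 415, 397, 442 and 421 TPM of Rps25. The part of these markers in the change of Rps25 was not tested.

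In CCD at 72 h most ribosomal protein genes were higher in UNx by a modest amount, though no single one passed the test. The median change was +0.26 on the log2 scale against +0.010 for all 13770 genes, and 73 of 78 members were higher, against 52.2% of all genes. By limma 37 members had an unadjusted p under 0.05, all higher, against 4.66% of all genes, and 0 had an adjusted p under 0.05, against 0.595%. The smallest adjusted p was 0.11. The share of TPM held by the family was 1.41, 1.29, 1.30 and 1.37% in the sham animals and 1.27, 1.54, 1.59 and 1.67% in the UNx animals. With all libraries UNx animal 1 was thus below every sham animal, and the other 3 UNx animals were above every sham animal. Without the sham library of low correlation sham animal 1 stood at 0.989%, below every UNx animal. The sham mean was then 1.24 ± 0.17% (SD, n = 4).

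The largest changes were in short genes. Rps29 (ENSMUSG00000034892) had 177, 119, 172 and 203 TPM in sham and 231, 257, 323 and 384 in UNx, apart, with a change of 0.88 ± 0.19 (SE) and an adjusted p of 0.11 by limma. Rpl37a, a zinc-binding large subunit protein, had 135, 111, 118 and 168 TPM in sham and 148, 209, 248 and 279 in UNx, with UNx animal 1 inside the sham range and a change of 0.75 ± 0.20 (SE). Rpl35, at the exit of the tunnel, had 77.5, 56.2, 38.7 and 65.1 TPM in sham and 76.5, 88.3, 97.5 and 113 in UNx, a change of 0.75 ± 0.18 (SE).

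By role, the stalk and the 5S particle behaved unevenly. Rpl12 (ENSMUSG00000038900) had 29.7, 30.4, 26.6 and 29.8 TPM in sham and 33.7, 45.9, 41.9 and 49.6 in UNx, apart, a change of 0.55 ± 0.13 (SE) with an adjusted p of 0.14 by limma. Rplp0, which it flanks, was lower in UNx, with 371, 409, 415 and 390 TPM in sham and 346, 368, 349 and 343 in UNx, a change of -0.17 ± 0.079 (SE) with an adjusted p of 0.70. Its partners Rplp1 and Rplp2 had changes of 0.22 ± 0.16 (SE) and 0.31 ± 0.13 (SE), with overlap. Of the 5S particle, Rpl11 (ENSMUSG00000059291) had 47.4, 40.4, 42.1 and 55.2 TPM in sham and 55.0, 67.4, 73.6 and 78.8 in UNx, touching at 1 animal of each group, and a change of 0.59 ± 0.14 (SE). Rpl5 (ENSMUSG00000058558) had 25.1, 26.0, 17.8 and 22.4 TPM in sham and 27.7, 27.2, 35.2 and 35.2 in UNx, apart, with a change of 0.45 ± 0.15 (SE). Both are known to hold back Mdm2 when ribosome assembly stalls. Of the small subunit, Rps6 had 104 ± 8.55 TPM in sham and 130 ± 12.5 in UNx (SD, n = 4 each), and Rps3 and Rps19 had changes of 0.093 and 0.15. Rpl4, Rps14 and Rpl13a had changes of 0.038, 0.078 and -0.005, and Rps3a3, near the level limit, had -0.29 ± 0.28 (SE).

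The UNx animals were all above the sham animals for 7 members, against 3.23% of all genes, and all below for 1, against 1.54%. The former included Rps29, Rpl35, Rpl12, Rpl5, Rpl37 and Rps6, and the latter was Rplp0. Separation was again read on log2 means. By arithmetic mean, sham animal 1, which holds the library of low correlation, was slightly above UNx animal 1 for Rpl35. Length again went with the change, less steeply than in PT-S1 at 72 h: the 40 shorter genes had a median change of 0.31, with 40 higher, and the 37 longer genes 0.17, with 33 higher. The correlation with log2 coding length was -0.42 across the 77 genes. The sum of the shorter over that of the longer genes was 1.12 to 1.17 in sham animals and 1.21 to 1.34 in UNx animals. Among all genes the medians were 0.054 for 967 genes of up to 468 coding bases and 0.007 for 10993 longer ones. The large subunit genes had a median of 0.28 over 46 and the small subunit genes 0.25 over 32. Genes with and without a pyrimidine run at the start had medians of 0.26 over 27 and 0.29 over 30. Without the sham library of low correlation the median change was 0.45 for the shorter and 0.28 for the longer genes. The correlation with log2 coding length was then -0.47, and the sum of the shorter over that of the longer genes was 1.03 to 1.17 in sham animals.

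The direction of the family in CCD at 72 h was the same under every setting computed, with a median change between 0.20 and 0.35 without each animal in turn and 0.37 without the sham library of low correlation. Without that library 76 of 78 members were higher and 47 had an unadjusted p under 0.05, against 5.53% of all genes, and 0 passed, against 0.937%, the smallest adjusted p being 0.067 for Rpl35. With every library as a replicate only 12 members were higher at an unadjusted p under 0.05, against 4.62% of all genes, and 1 was lower. Principal cell markers summed to 22133 to 42759 TPM in sham animals and 24060 to 31333 in UNx animals, and thick ascending limb markers to 35.5 to 92.9 and 44.9 to 55.0. None of either list had an unadjusted p under 0.05. Macrophage and leukocyte markers had a median change of 0.36, with 7 of 9 higher, against 52.2% of all genes. Intercalated cell markers had 0.22, with 6 of 7 tested higher. Proximal tubule S3 markers had -0.61, with 0 of 4 tested higher, and S1/S2 markers -0.35, with 1 of 5. None of these had an unadjusted p under 0.05, and their part in the members' values was not tested. In these tissue samples more RNA per cell and more cells of a type rich in these messages cannot be told apart.

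**Figure D4:**
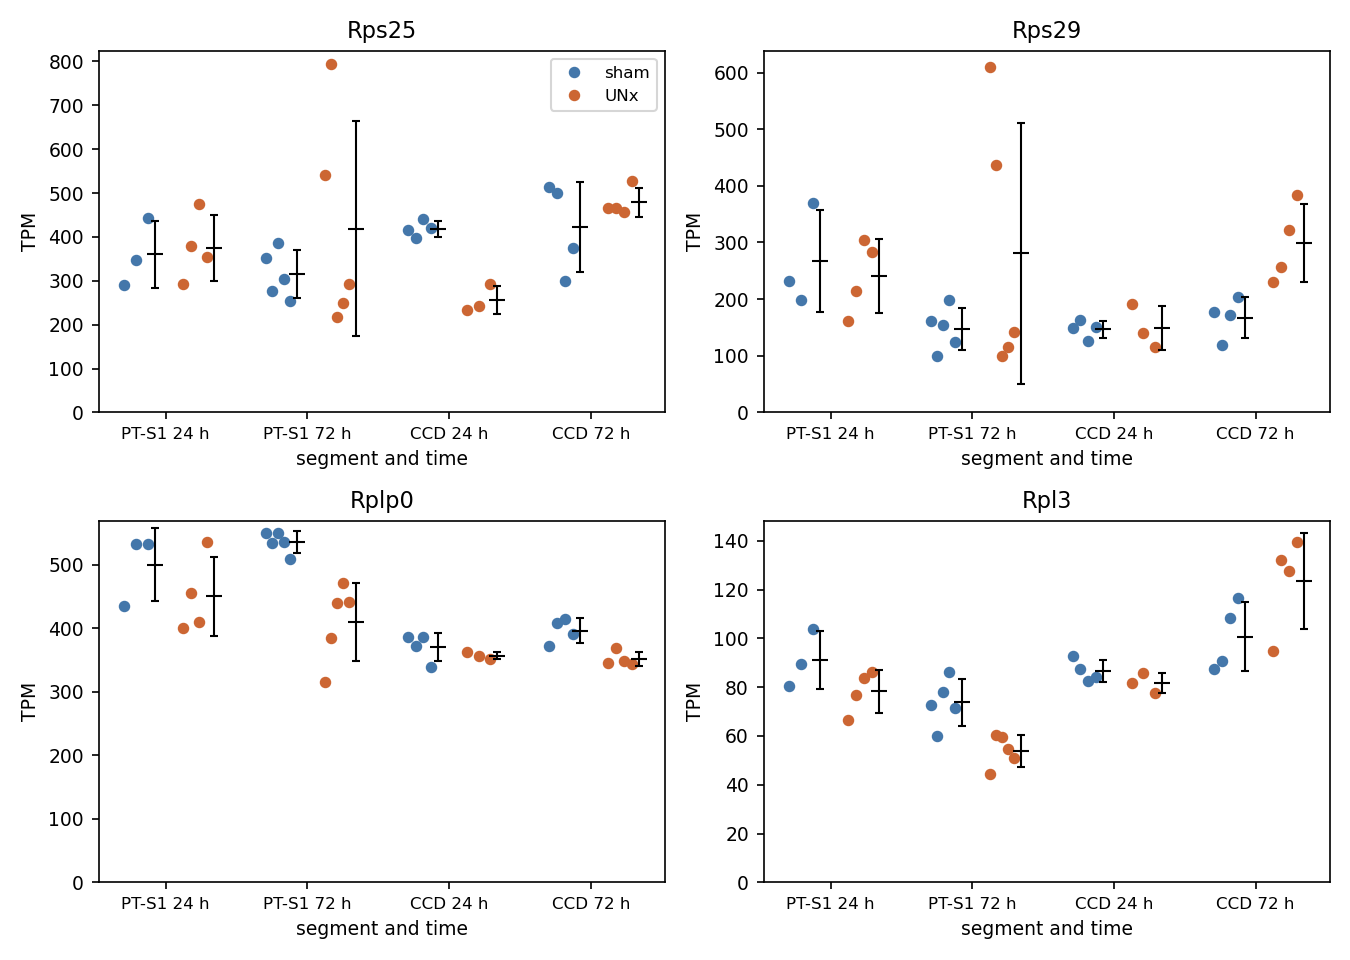
TPM (vertical) of Rps25, Rps29, Rplp0 and Rpl3 in each animal by segment and time (horizontal), sham in blue and UNx in orange, with the group mean and SD in black. Rps25 separates in CCD at 24 h (397 to 442 against 233 to 293 TPM), Rps29 in CCD at 72 h (119 to 203 against 231 to 384), and Rplp0 in PT-S1 at 72 h (509 to 550 against 315 to 471).

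**Figure D5:**
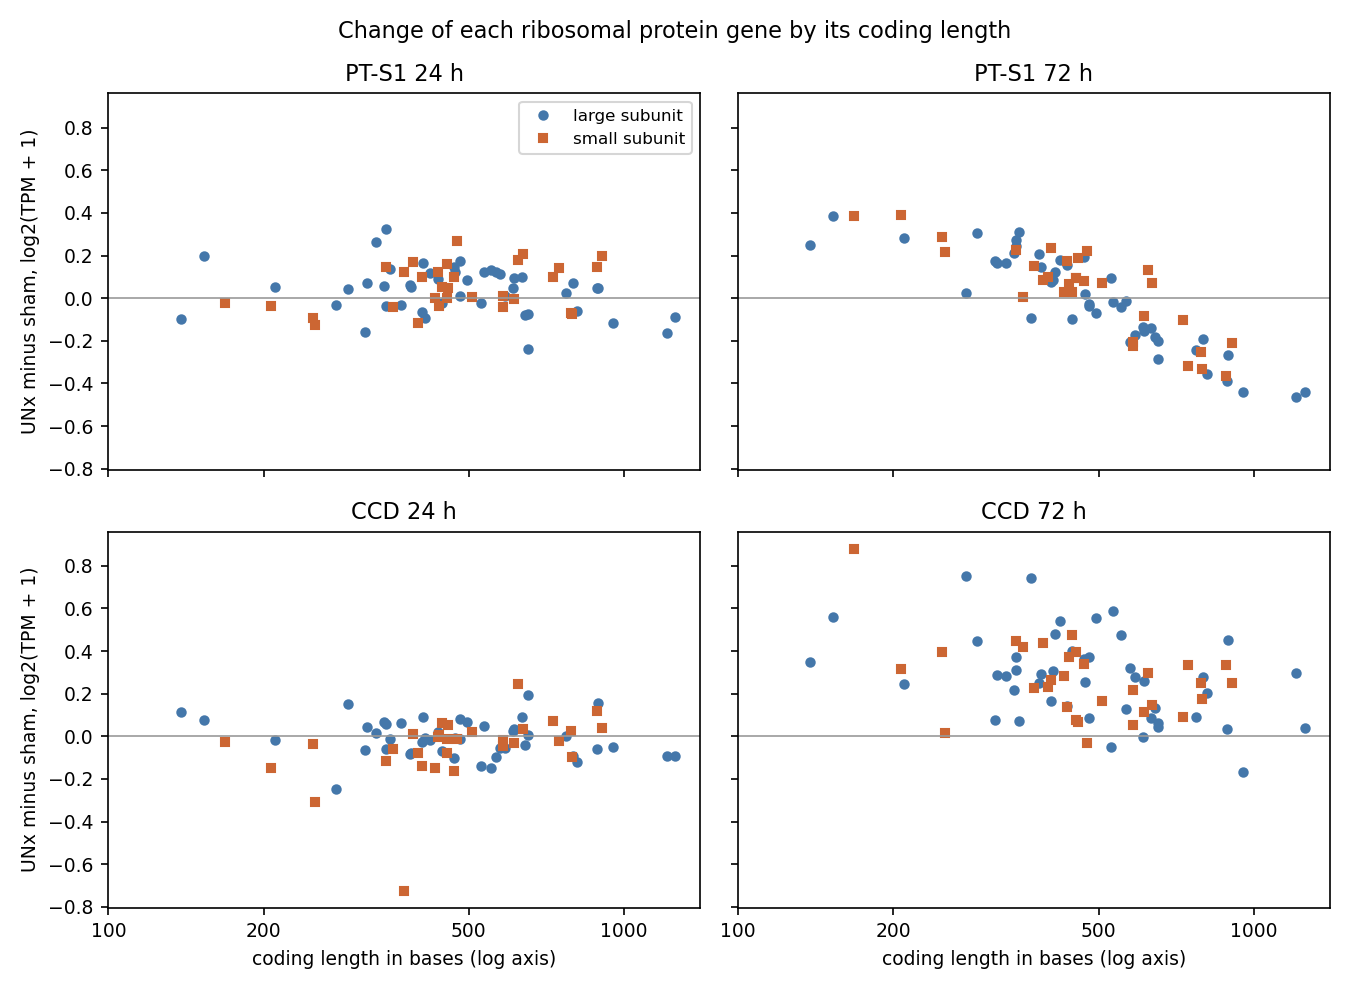
Change of each ribosomal protein gene (vertical, UNx minus sham, log2(TPM + 1)) against its coding length in bases (horizontal, log axis) in the 4 tables, with large subunit genes as circles and small subunit genes as squares. The points slope down in PT-S1 at 72 h (correlation -0.87) and, less, in CCD at 72 h (-0.42), and Rps25 stands alone at -0.72 in CCD at 24 h.

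Differences between the UNx effects of 2 tables were tested for each of 77 members, and none passed in the fits with all libraries. For CCD at 72 h minus CCD at 24 h, 26 members had an unadjusted p under 0.05, all higher at 72 h, against 3.52% of 13253 genes. The median difference was 0.27 against 0.054 for all genes. The largest were Rpl37a with 1.00 ± 0.26 (SE), Rps25 with 0.95 ± 0.20 (SE) and Rps29 with 0.91 ± 0.28 (SE), and the smallest adjusted p by limma, that of Rps25, was 0.64. Without the sham library of low correlation the median difference was 0.39 against -0.023 for all genes, 36 members were higher at 72 h at an unadjusted p under 0.05, against 3.87% of genes, and 0 passed, against 0.0% of genes.

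For CCD minus PT-S1 at 24 h the median difference was -0.059 against 0.13 for all genes. Only Rps25 had an unadjusted p under 0.05, against 3.44% of genes lower in CCD, with a difference of -0.85 ± 0.23 (SE) and an adjusted p of 0.16 by limma. Without the 2 PT-S1 sham libraries of low correlation Rps25 passed, with -0.82 ± 0.19 (SE) and an adjusted p of 0.046, against 1.64% of all genes called. For CCD minus PT-S1 at 72 h 9 members had an unadjusted p under 0.05, all higher in CCD, against 8.73% of genes, and the median difference of 0.24 was close to the 0.30 of all genes. Without the 3 libraries of low correlation the median difference was 0.60 against -0.057 for all genes, 77 of 77 members were higher in CCD, and 69 had an unadjusted p under 0.05, against 5.86% of genes. Rpl35 then passed, with 1.61 ± 0.28 (SE) and an adjusted p of 0.040 by limma, against 0.0813% of all genes called. After median-ratio scaling with all libraries this median difference was -0.16, so its sign depended on the scaling. For PT-S1 at 72 h minus 24 h only Rps6 had an unadjusted p under 0.05, against 1.96% of genes lower at 72 h, with -0.46 ± 0.21 (SE). The median difference was -0.046 against -0.098 for all genes, with 33 of 77 members higher at 72 h. Without the 4 libraries of low correlation 0 of 77 were higher, and the median was -0.31 against +0.20 for all genes. At an unadjusted p under 0.05, 6 members were then lower at 72 h, against 1.79% of genes, and 0 passed, against 1.63%.

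Genes outside the rule that belong to the same programme were counted from lists. All libraries were used, and no version without those of low correlation is given for these lists. Of the ribosomal proteins under other names, Fau, made as a fusion with a ubiquitin-like protein, had 161 ± 24.1 TPM in sham and 191 ± 19.8 in UNx (SD, n = 4 each) in CCD at 72 h, a change of 0.28 ± 0.12 (SE) with an adjusted p of 0.67 by limma. Rack1, a scaffold on the small subunit, had a change of 0.14 ± 0.091 (SE) there. All 3 genes of this list were higher in that table, 2 of them at an unadjusted p under 0.05, against 4.66% of all genes, and 0 passed. In the other tables none of the 3 had an unadjusted p under 0.05. Of 17 translation factors with TOP messages none passed in any table. In CCD at 72 h 1 of 17 was higher at an unadjusted p under 0.05, against 4.66% of all genes. It was Tpt1 with 0.31 ± 0.12 (SE), and the median of the 17 was 0.067. In PT-S1 at 72 h 6 of 17 were lower at that threshold, against 19.1% of all genes. They were led by Eef1a1, which brings aminoacyl-tRNA to the ribosome, with 698 ± 44.9 TPM in sham and 480 ± 88.0 in UNx (SD, n = 5 each). At 24 h 3 of 17 were lower in PT-S1, near the share of 15.2% of all genes. Among them Eif4b had 58.4 ± 26.1 TPM in sham (SD, n = 3) and 28.5 ± 2.69 in UNx (SD, n = 4).

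Of 9 noncoding genes that host small nucleolar RNAs and begin as TOP messages, 3 were lower at an unadjusted p under 0.05 in CCD at 24 h, and 1, Gas5, was lower in CCD at 72 h, with a change of -0.34 ± 0.13 (SE) where the protein genes were higher. In PT-S1 at 72 h 8 of the 9 were higher, against 17.0% of all genes, with a median change of 0.13. There 1 was higher at that threshold, against 158 of 11886 genes. In PT-S1 at 24 h 3 of the 9 were higher, against 29.1% of all genes, and 1 was lower at that threshold. Of 20 regulators of ribosomal protein synthesis, such as Ubtf of rRNA transcription and Eif4ebp1 and Rictor of the mTOR pathway, 4 of 19 tested were lower at that threshold in PT-S1 at 24 h, 9 of 19 in PT-S1 at 72 h and 5 of 20 in CCD at 24 h. In CCD at 72 h 0 of 20 were lower or higher. Background shares at an unadjusted p under 0.05 for lower genes were 15.2%, 19.1%, 9.97% and 2.82% in these tables. None of these genes passed the adjusted test.

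Among 6 paralogs outside the rule tested in CCD at 24 h, Rpl22l1 and Rps27l were lower at an unadjusted p under 0.05, against 9.97% of all genes, with changes of -0.44 ± 0.13 (SE) and -0.19 ± 0.065 (SE), where Rpl22 had -0.081. Rpl7l1 was higher at that threshold, against 5.55% of all genes, with 0.18 ± 0.071 (SE), and in PT-S1 at 72 h it was lower, with -0.38 ± 0.17 (SE). None passed. Processed pseudogenes, of which ribosomal protein genes have many, can share reads with their parents. The 319 rows named as such held 0.006 to 0.011% of TPM, against 1.13 to 1.43% for the members. A pseudogene share of over 10% of a member's own level was found for Rps12 in CCD at 24 h only, with 15.0%.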

How the data were processed

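The authors deposited 4 tables of TPM per gene and library. The submitters' processing notes name STAR, RSEM 1.3.3 and GRCm39, with no roles given. Per the labels' protocols, polyA RNA was copied with the SMART-Seq V4 kit and made into libraries by Illumina protocols. TPM keeps no depth, so no counting error or detection limit is given. Of 69 columns, 47 matched a single sample and 22 a group and animal. Library numbers are in column order within an animal. No 2 columns were identical (0 in all). Tables were treated as normalized separately.

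Libraries were averaged per animal on log2(TPM + 1) (pseudocount 1), and every gene whose mean reached 1 TPM across animals entered the test by limma 3.58.1 (R 4.3.3), eBayes with a mean-variance trend, two-sided, Benjamini-Hochberg adjustment over all genes tested, threshold 0.05. Changes are UNx minus sham on this scale, which understates those of low genes. Differences of UNx effects used a model of 4 groups. Nothing says that replicates with the same number share an origin. Within tables the correlation of same-numbered animals ran from -0.37 to 0.33, so the number was read as a name. The fit was tested on simulated data. p-values measure the spread between these animals.

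Members and lists were chosen with earlier results of these data known. Members were named by a list of 24 roles, the 3 largest and 3 smallest changes and any call in a table, and the 3 highest and 3 lowest sham levels. Listed genes were named by the 2 smallest p in a table, and others were picked for the text after seeing values. Coding length, from GENCODE M21, was used in place of protein length. Alternatives changed the pseudocount, level filter, scaling, averaging, weights and libraries. Start site sequences are from RefSeq (GRCm38.p6). Some genes are counted but not reported by name here.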

Additional observations from a re-analysis of the deposited data

Results flagged for a closer look

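Values of 26 named members and the share of TPM were examined for an animal far from the others of its group, in groups of 4 or 5 animals. Of 162 such groups of values 6 were marked, or 3.7%, and chance marks about 1 in 20, so the number is no more than chance gives. In PT-S1 at 72 h, Rpl4 was 125 TPM in UNx animal 1, against 167 to 177 in the other 4. Rpl14 in CCD at 24 h had 152 TPM in sham animal 3 and 120 to 124 in the others. Rpl5 was 22.6 TPM in sham animal 4 of CCD at 24 h, where the others lay between 23.5 and 23.7.

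The other marks were in UNx animals of CCD at 72 h. UNx animal 4 had 528 TPM of Rps25, against 458 to 466 in the others. UNx animal 1 had 87.4 TPM of Rpsa, the laminin receptor precursor, where the others had 117 to 123, and 183 TPM of Rps19 where the others had 206 to 210. UNx animal 1 also had the lowest share of TPM in that group, 1.27%, and animal 4 the highest, 1.67%.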

How the results depend on the processing

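The call of Rps25 in CCD at 24 h (1 member) was lost when the level filter was replaced by TPM above 0 in 3 animals (0 members, adjusted p 0.073) and with the replicate number as a block (0 members, adjusted p 0.12). In this table the 3 same-numbered pairs had correlations under 0.1, so the block is not read as a pairing. The blocked fits changed no other member's call. With every library as a replicate, which counts libraries of 1 animal as independent, 3 members passed, Rps25 and Rps27 among them. The share of all genes called in that fit is not given here, so this count is not read as a result about the members. Counts without each animal were 0 to 1 in CCD at 24 h and in CCD minus PT-S1 at 24 h, where leaving out PT-S1 24 h sham animal 3 gave 1 (Rps25), and 0 to 0 in the other 6 comparisons. Without the libraries of low correlation 1 member passed in CCD minus PT-S1 at 24 h and 1 in CCD minus PT-S1 at 72 h. In PT-S1 at 72 h arrayWeights gave 20 calls, against 0, and median-ratio scaling a median change of 0.44, against 0.048. Without each animal the median change was -0.077 to 0.22 in PT-S1 at 24 h, -0.10 to 0.18 in PT-S1 at 72 h, -0.052 to 0.024 in CCD at 24 h and 0.20 to 0.35 in CCD at 72 h. For the differences it was -0.21 to 0.085 for PT-S1 at 72 h minus 24 h, 0.22 to 0.36 for CCD at 72 h minus 24 h, -0.24 to 0.063 for CCD minus PT-S1 at 24 h and 0.14 to 0.39 for CCD minus PT-S1 at 72 h. The cause of these shifts was not tested. Adding to each member the TPM of its pseudogene rows, an alternative chosen after seeing the data, changed no count. Of 142 changes of named members, only that of Rps25 in CCD at 24 h was a call in the main fit, so the others had no call to reverse. Among all their alternatives 2752 were marked unchanged and 34 moved by at least the SD between animals. In 10 a member passed that had not passed in the main fit, and in 6 the call of Rps25 was lost. TPM gives no depth, so the precision of low members such as Rps3a3 is unknown.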
